A study of Mus musculus with 6 samples.

Results

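Cochlear RNA from mice exposed to noise alone was compared with cochlear RNA from unexposed baseline mice, on 1 one-colour gene expression array for each group. The difference for each gene was the value on the array titled Noise minus the value on the array titled Baseline, each taken as log2 of the scanner's processed signal less the 75th percentile of that array. A gene counted as measured when its probe was well above background on both arrays, which held for 24161 of 37318 named genes, or 64.7%. A further 786 genes were above background on the noise array alone, 777 on the baseline array alone and 11594 on neither.

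The noise-only group was made up of female C57BL/6 mice, an inbred strain, aged 6 weeks, that were exposed to intense noise for 2 h and received no injection. The baseline group had the same strain, sex and age, and received neither noise nor an injection. The design gives 6 mice in each group, and the sources used here do not say whether their RNA was pooled. The labels give no time after noise and no hour of day for the noise-only group. The same study held 4 more groups of noise-exposed mice, injected intraperitoneally straight after the noise with dexamethasone, a synthetic glucocorticoid, at 10 mg/kg, or with saline, and sampled 12 h or 24 h later. Their levels are given beside some genes as a description, since all 6 groups had 1 array each.

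The cochlea turns sound into nerve impulses: vibration bends the bundles of hair cells in the organ of Corti, potassium from the fluid secreted by the stria vascularis enters them, and spiral ganglion neurons carry the signal to the brainstem. Intense noise can injure hair cells, their synapses and the lateral wall, and noise-exposed cochleae are known for oxidative stress and for a rise in chemokines followed by entry of leukocytes. Interferons are cytokines that switch on a shared set of defence genes through STAT and IRF transcription factors, and the circadian clock is a feedback loop in which CLOCK and BMAL1 drive their own repressors.

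Of the measured genes, 638 (2.64%) were higher on the noise array by 2-fold or more and 768 (3.18%) were lower by that much, together 5.82%. The median difference over all measured genes was -0.01 on the log2 scale, and 84.9% of genes lay within 1.5-fold of baseline. Past 4-fold were 100 higher and 82 lower genes. No difference had a replicate check, since each group had 1 array, and no p-value is printed. The interval after a fold comes from the spot errors of the scanner software and covers spot error only. Levels below are a probe's signal as a percent of the 75th percentile signal of its array (679 units for noise, 643 for baseline), and they compare arrays, not genes. A summed level adds the levels of a list's genes above background on either array. Its brightest probes weigh most, so it can differ from the list median. Of 327 genes past 2-fold that had a further measured probe, 286 (87.5%) had all their probes in the same direction. In whole tissue, fewer cells of a type and less RNA per cell cannot be told apart.

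**Figure D1:**
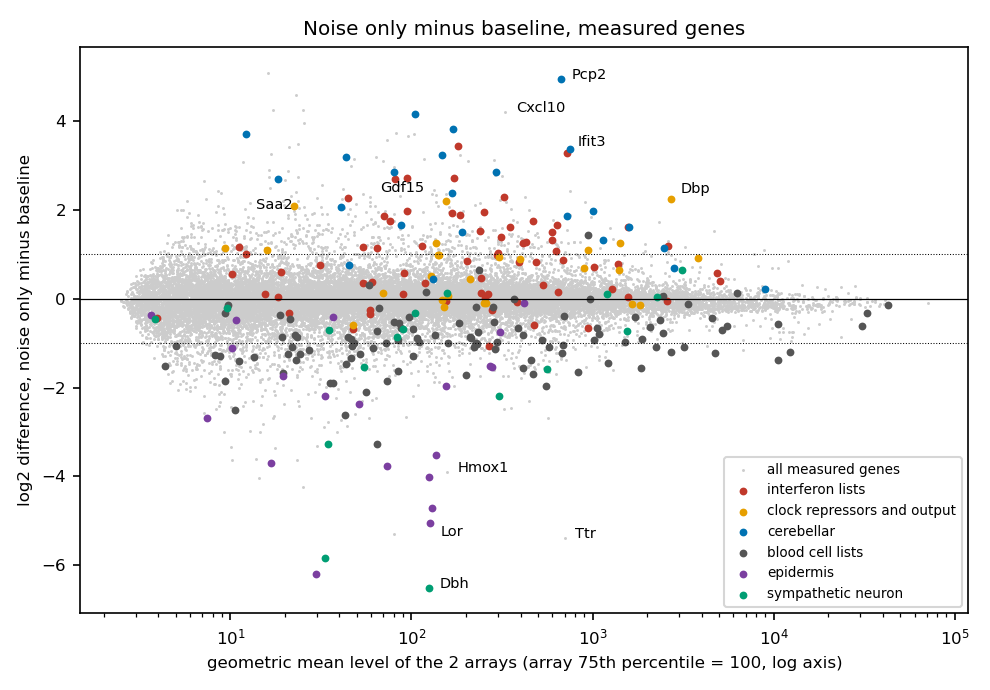
Log2 difference (noise only minus baseline, y axis) against the geometric mean level of both arrays (x axis, log scale) for all measured genes in grey, with members of 6 sets of gene lists coloured; dotted lines mark 2-fold. Interferon, clock and cerebellar genes lie above the upper line in part, with Pcp2 (4.96) and Cxcl10 (4.21) among the highest genes, and blood cell, epidermal and sympathetic genes below the lower line in part, down to Dbh (-6.51).

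Defining markers of the cochlea were present on both arrays. The hair cell genes Ocm, Otof, Myo7a and Pou4f3, the fibrocyte gene Coch, the strial genes Kcnq1, Kcne1 and Dct and the ganglion genes Nefl, Prph and Gata3 were measured, while the probe for Slc26a5, the motor protein of outer hair cells, was not well above background on either. Genes of neighbouring tissue were also measured, at unequal levels, and several results below move with them. Summed levels of 24 cerebellar genes came to 35100 on the noise array and 15710 on the baseline array, and of 16 choroid plexus genes to 4079 for noise and 10920 for baseline. Summed levels of 25 epidermal genes were 1300 for noise and 5631 for baseline, and of 32 skeletal muscle genes 90570 for noise and 56870 for baseline. Cerebellar and muscle genes were thus higher on the noise array, and choroid plexus and epidermal genes lower.

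Genes known to be induced by interferon were higher on the noise array as a group. Across 4 lists (IFIT and Mx effectors, the OAS and ISG15 system, nucleic acid sensors with interferon transcription factors, and interferon-inducible GTPases), 30 of the 70 measured (42.9%) were higher on the noise array by 2-fold or more, against 2.64% of all genes. Only 1 was at least 2-fold lower, and the median difference was 0.83 on the log2 scale. The levels of 58 of the 70 were above baseline.

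Ifit3, an antiviral protein that binds to the RNA-sensing machinery, had a level of 2260 on the noise array, against 229.9 on the baseline array, 9.83-fold higher (7.45 to 12.97). Its probe lies on mm9 chromosome 19 at 34663105 to 34663164. The close copy Ifit3b read 594 for noise and 54.5 for baseline, 10.9-fold higher, and the copies may share signal. Ifit1, which binds viral RNA caps, read 441 for noise and 67.2 for baseline, and Mx1, a GTPase that blocks viral nucleocapsids, 207 for noise and 31.7 for baseline, 6.52-fold higher with a second probe at 2.80 on the log2 scale. Ifi44 was 4.82-fold higher, and Ifitm3, which blocks viral entry at membranes, had 3941 for noise and 1716 for baseline. In all, 9 of 17 measured IFIT and Mx effectors were at least 2-fold higher and none was 2-fold lower, with a median of 1.17. Below baseline but within 2-fold was Isg20, an RNA exonuclease, at -0.65.

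In the OAS and ISG15 system, which degrades viral RNA and tags proteins, 5 of 14 measured genes were at least 2-fold higher and none lower, with a median of 0.63. Usp18, the protease that removes ISG15, had 327 on the noise array and 85.7 on the baseline array. Oasl1, a translational brake on Irf7 in mice, had 357 for noise and 95.6 for baseline, with a second probe at 2.13 on the log2 scale. Isg15 itself read 1299 for noise and 797 for baseline, a log2 difference of 0.71 that stayed under 2-fold.

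Among 23 measured sensors and transcription factors, 6 were at least 2-fold higher and 1 lower, with a median of 0.35. Irf7, the transcription factor that amplifies interferon production, read 2741 for noise and 889 for baseline, 3.08-fold higher (2.34 to 4.07), with a second probe at 1.39. Zbp1, a sensor of Z-form nucleic acid, was 3.39-fold higher, although its second probe gave 0.43. Stat2 differed by 1.27 and Irf9 by 0.83, both subunits of the factor that type I interferon activates. Sensors of foreign RNA were near or past the threshold: Ifih1 differed by 1.18, Dhx58 by 1.14 (0.99 with another background correction) and Ddx58 by 1.04 (0.91 with spike-in scaling). Irf3, a factor that these sensors activate, differed by 0.22, with 1381 for noise and 1184 for baseline. The member that was 2-fold lower was Irf8, a factor of myeloid cells, with 185 for noise and 390 for baseline.

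The interferon-inducible GTPases, which attack the vacuoles of intracellular parasites, had the highest share: 10 of 16 measured genes were at least 2-fold higher, none lower, and the median was 1.33. Iigp1 had 717 on the noise array and 146 on the baseline array, 4.90-fold higher (3.71 to 6.46), with a second probe at 1.69. Gbp3, a guanylate-binding protein, read 495 for noise and 128 for baseline, and Irgm1, which regulates the other IRG proteins, 615 for noise and 201 for baseline. Gbp9 had 503 for noise and 191 for baseline.

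Interferon transcripts themselves were not seen to be higher. Of 13 measured interferon and receptor genes none was 2-fold apart, where 5.82% of all genes were. Their median was -0.11, and the probes for Ifnb1 and Ifng were not well above background on either array. Ifnar1, the type I receptor chain, read 549 for noise and 587 for baseline. The type I interferon probes may miss a low level, since 11594 genes lay below background on both arrays.

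The other 4 arrays place these levels. Ifit3 read 581 (12 h) and 899 (24 h) on the dexamethasone arrays and 883 (12 h) and 2344 (24 h) on the saline arrays. Irf7 read 917 (12 h) and 1428 (24 h) with dexamethasone and 2259 (12 h) and 3186 (24 h) with saline. Of the 30 interferon genes at least 2-fold above baseline on the noise array, 29 had a noise level within 1.5-fold of their saline 24 h level, and the median ratio of noise over saline 24 h was 0.960. The exception was Gbp9, at 3.08, which read 232 (12 h) and 165 (24 h) with dexamethasone and 167 (12 h) and 163 (24 h) with saline, so that it stood high on the noise array alone. The 30 genes were picked for being above baseline on the noise array, so these levels are a description.

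Blood cell genes were mostly lower on the noise array. In 6 lists, which include red cell and platelet genes, 1 of 108 measured genes was 2-fold higher and 49 were 2-fold lower. Over all genes the shares were 2.64% and 3.18%. The macrophage list had 0 of 16 genes 2-fold higher and a summed level of 7001 on the noise array against 9063 on the baseline array. The part of leukocytes in the interferon result was not tested. Cerebellar genes were higher on the noise array too, with values given further on, and their part in the interferon result was not tested. The summed level of cerebellar genes was 35100 for noise and 15710 for baseline. It was 31900 (12 h) and 15920 (24 h) with dexamethasone and 34990 (12 h) and 18750 (24 h) with saline.

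**Figure D2:**
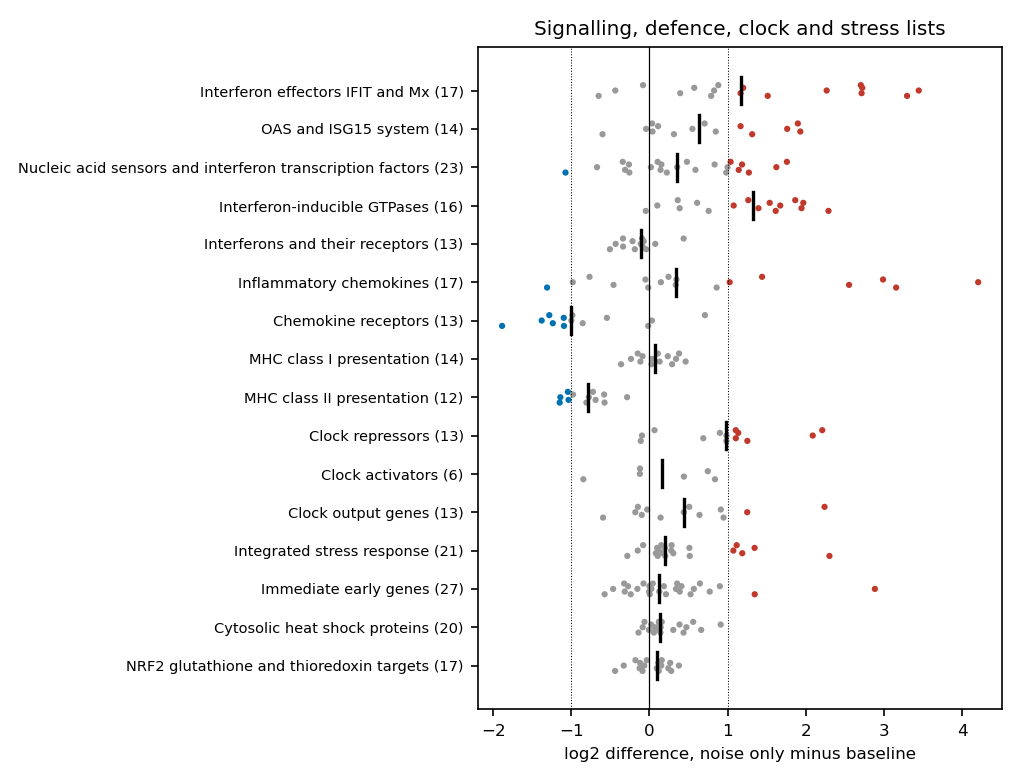
Log2 difference (noise only minus baseline, x axis) of every measured member of 16 lists, with the number measured in brackets, red at least 2-fold higher, blue at least 2-fold lower, and a black bar at the list median. The bars of the IFIT and Mx list (1.17), the GTPases (1.33) and the clock repressors (0.98) stand farthest right, and that of the chemokine receptors farthest left.

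Promoters of 3 genes are shown because the interferon genes and Cxcl10 were higher together, and the letters of the interferon-stimulated response element, the site of the STAT and IRF complex, can be read in them. Windows run from 250 bases before to 50 bases after the start of the gene, from RefSeq on GRCm38.p6, written in the gene's own direction, with matches to GAAA, 2 free bases and GAAA on either strand in capitals. The window of Ifit3 is chr19:34583279-34583578 on the plus strand, with 2 matches. That of Cxcl10 is chr5:92348840-92349139 on the minus strand, with 1 match. That of Gbp3 is chr3:142559794-142560093 on the plus strand, with 2 overlapping matches.
Ifit3: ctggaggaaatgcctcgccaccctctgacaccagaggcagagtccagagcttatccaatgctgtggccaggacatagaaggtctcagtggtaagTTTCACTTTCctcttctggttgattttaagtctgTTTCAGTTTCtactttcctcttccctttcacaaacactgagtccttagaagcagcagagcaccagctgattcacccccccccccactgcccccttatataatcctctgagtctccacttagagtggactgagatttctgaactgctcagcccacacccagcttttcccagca
Cxcl10: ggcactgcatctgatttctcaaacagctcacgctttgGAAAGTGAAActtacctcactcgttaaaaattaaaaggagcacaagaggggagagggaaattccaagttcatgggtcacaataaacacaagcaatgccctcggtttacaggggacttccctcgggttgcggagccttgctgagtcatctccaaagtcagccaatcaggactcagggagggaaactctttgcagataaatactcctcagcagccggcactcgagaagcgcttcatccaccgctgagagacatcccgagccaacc
Gbp3: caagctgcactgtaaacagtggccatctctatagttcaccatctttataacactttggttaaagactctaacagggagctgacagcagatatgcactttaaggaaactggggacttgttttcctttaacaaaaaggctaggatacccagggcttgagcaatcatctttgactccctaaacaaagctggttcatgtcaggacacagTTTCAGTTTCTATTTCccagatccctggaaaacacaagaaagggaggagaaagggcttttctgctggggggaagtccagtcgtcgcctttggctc

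The element was found in 3.44% of all 32851 promoter windows and in the windows of 3.99% of the 27025 genes that have one. Of the 20 interferon list genes with a window that were at least 2-fold higher, 15 (75%) held it, and of the 28 measured but not 2-fold higher, 10 (35.7%). All 8 GTPases with a window held it. Over all genes with a window, it lay in 32 of 325 (9.85%) that were at least 2-fold higher and in 23 of 448 (5.13%) that were at least 2-fold lower. The gamma-activated site, TTCNNNGAA, which reads the same on both strands, lay in 6 of the 20 higher and 9 of the 28 other interferon genes and in 8.30% of all windows. A match is a description of letters, not a bound site.

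Among higher genes at or above the median signal, the chemokine Cxcl10 had the largest difference after the Purkinje cell gene Pcp2. Cxcl10, an interferon-induced attractant of T cells, had a level of 1418 on the noise array and 76.7 on the baseline array, 18.5-fold higher (14 to 24.4). It read 378 (12 h) and 414 (24 h) on the dexamethasone arrays and 437 (12 h) and 945 (24 h) on the saline arrays, so the noise array had the highest level of the 6.

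Ccl2, the main attractant of monocytes, had 350.2 for noise and 39.2 for baseline, 8.92-fold higher (6.75 to 11.8). On the later arrays Ccl2 read 503 (12 h) and 647 (24 h) with dexamethasone and 467 (12 h) and 218 (24 h) with saline. Ccl7 and Ccl12, ligands of the same receptor, were 7.94-fold and 5.88-fold higher, with 131 for noise and 16.5 for baseline, and 207 for noise and 35.2 for baseline. Cxcl1, an attractant of neutrophils, was dim, at 24.3 for noise and 8.96 for baseline, and Ccl4 read 42.6 for noise and 20.9 for baseline. Both fell under 2-fold with another background correction, at 0.84 and 0.77 on the log2 scale. Of 17 measured inflammatory chemokines, 6 were at least 2-fold higher and 1 lower (Cxcl5, at -1.31), with a median of 0.34. Of all genes, 2.64% were higher and 3.18% lower by that much. The summed level of the list was 30350 for noise and 31440 for baseline, and Ccl5 differed by -0.02 and Cxcl9 by -0.46, so the higher members were not the whole family.

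Several chemokine receptors were lower. None of 13 measured chemokine receptors was at least 2-fold higher, and 6 were at least 2-fold lower, against 2.64% and 3.18% of all genes. Their median was close to -1 on the log2 scale. With normexp background correction and quantile normalization, 4 of these 6 (Ccr3, Ccr6, Ccr9 and Cxcr4) fell under 2-fold and the median was -0.60, and among the 3 receptors at or above the median signal (Cx3cr1, Ackr1 and Ackr3) it was 0.0314. The receptors' summed level was 2203 for noise and 2322 for baseline. Cxcr2, carried by neutrophils, read 19.3 for noise and 71.3 for baseline. Ccr7, carried by lymphocytes and dendritic cells, read 27.7 for noise and 72.2 for baseline. Ccr2, the monocyte receptor of Ccl2, read 38.7 for noise and 76.7 for baseline, a difference of -0.99 that stayed under 2-fold. Neutrophil granule genes moved the same way, with 12 of 20 at least 2-fold lower and a summed level of 62350 for noise and 113600 for baseline, and their part in the receptor result was not tested.

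Cytokine genes were mostly within 2-fold. Of 23 measured cytokines and receptors, none was 2-fold higher and 1, the decoy receptor Il1r2, was lower, with a median of -0.23. These counts are near the shares of all genes, 2.64% higher and 3.18% lower. Among cytokine list genes at or above the median signal the median was 0.0782. Tnf read 17.7 for noise and 20.0 for baseline, and Il1b 25.2 for noise and 31.9 for baseline, while Il6, Il1a and Csf3 were not well above background on either array. The 13 measured NF-kB subunits and feedback inhibitors were all within 2-fold, with a median of -0.05. MHC class I genes, which interferon is known to raise, also stayed within 2-fold, 14 of 14, where 5.82% of all genes were 2-fold apart. A list of 13 or 14 genes cannot be told apart from that share. Of 12 MHC class II genes, 4 were at least 2-fold lower, against 3.18% of all genes. H2-Ab1, a class II chain, read 1011 for noise and 2074 for baseline, with its 3 further probes between -1.39 and -1.03.

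Acute phase genes went both ways. Of 14 measured, 1 was at least 2-fold higher and 2 were at least 2-fold lower, where 5.82% of all genes were 2-fold apart. The median was -0.16, and the summed level was 4560 for noise and 8216 for baseline. Saa3, a serum amyloid A of inflamed tissue, read 46.0 on the noise array and was not well above background on the baseline array, at least 18.3-fold higher, where the bound sets the dim array at its lowest signal well above background. Saa2 read 24.4 for noise and 6.00 for baseline, 4.08-fold higher (2.86 to 5.82), and just under 2-fold with another background correction (0.996 on the log2 scale). Saa2 read 56.0 (12 h) and 37.0 (24 h) with dexamethasone and 39.0 (12 h) and 18.1 (24 h) with saline. Lcn2, an iron-binding protein of neutrophil granules, was lower, with 1790 for noise and 4089 for baseline.

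Clock genes formed the next group of higher genes. Of 13 measured clock repressors, 6 were at least 2-fold higher on the noise array, against 2.64% of all genes. None was 2-fold lower, and the median was 0.98. Of 13 clock output genes 2 were higher and none lower, with a median of 0.44, and of 6 measured clock activators none was 2-fold apart.

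Dbp, a transcription factor driven by CLOCK and BMAL1, had a level of 5871 for noise and 1242 for baseline, 4.73-fold higher (3.58 to 6.24), with a second probe at 2.23 on the log2 scale. Per2, a core repressor, had 332 for noise and 71.8 for baseline, 4.63-fold higher, with a second probe at 1.16. Ciart, a repressor that binds the clock's activators, had 46.1 for noise and 10.8 for baseline, and its second probe gave 0.98. Per3 had 211 for noise and 88.7 for baseline, with its further probes at 1.35 and 1.51. These 4 genes had all their probes in 1 direction.

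Probes of other clock genes disagreed or lay near the threshold. Per1 had 1380 for noise and 642 for baseline by its brighter probe, 2.15-fold higher, but its second probe gave -0.65, and the mean of both was 0.23. Cry1 and Bhlhe41 were dim, at 13.8 and 23.4 for noise and 6.30 and 10.9 for baseline, and fell under 2-fold with another background correction, at 0.59 and 0.65. Nr1d1, which represses Arntl, read 199 for noise and 101 for baseline, a difference of 0.98, and Tef, a relative of Dbp, 5248 for noise and 2787 for baseline, a difference of 0.91. Arntl, which encodes BMAL1, was on the other side of baseline, with 56.0 for noise and 101 for baseline, a difference of -0.85 with further probes between -0.91 and -0.58. Clock, its partner, read 309 for noise and 336 for baseline.

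On the remaining arrays Dbp read 328 (12 h) and 593 (24 h) with dexamethasone and 918 (12 h) and 5526 (24 h) with saline. Per2 read 90.4 (12 h) and 70.7 (24 h) with dexamethasone and 56.0 (12 h) and 357 (24 h) with saline. Arntl read 199 (12 h) and 133 (24 h) with dexamethasone and 153 (12 h) and 33.1 (24 h) with saline. The noise and saline 24 h arrays were thus the pair with high Dbp and Per2 and low Arntl. The labels give no hour of day for any group, so the part of sampling hour was not tested.

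**Figure D3:**
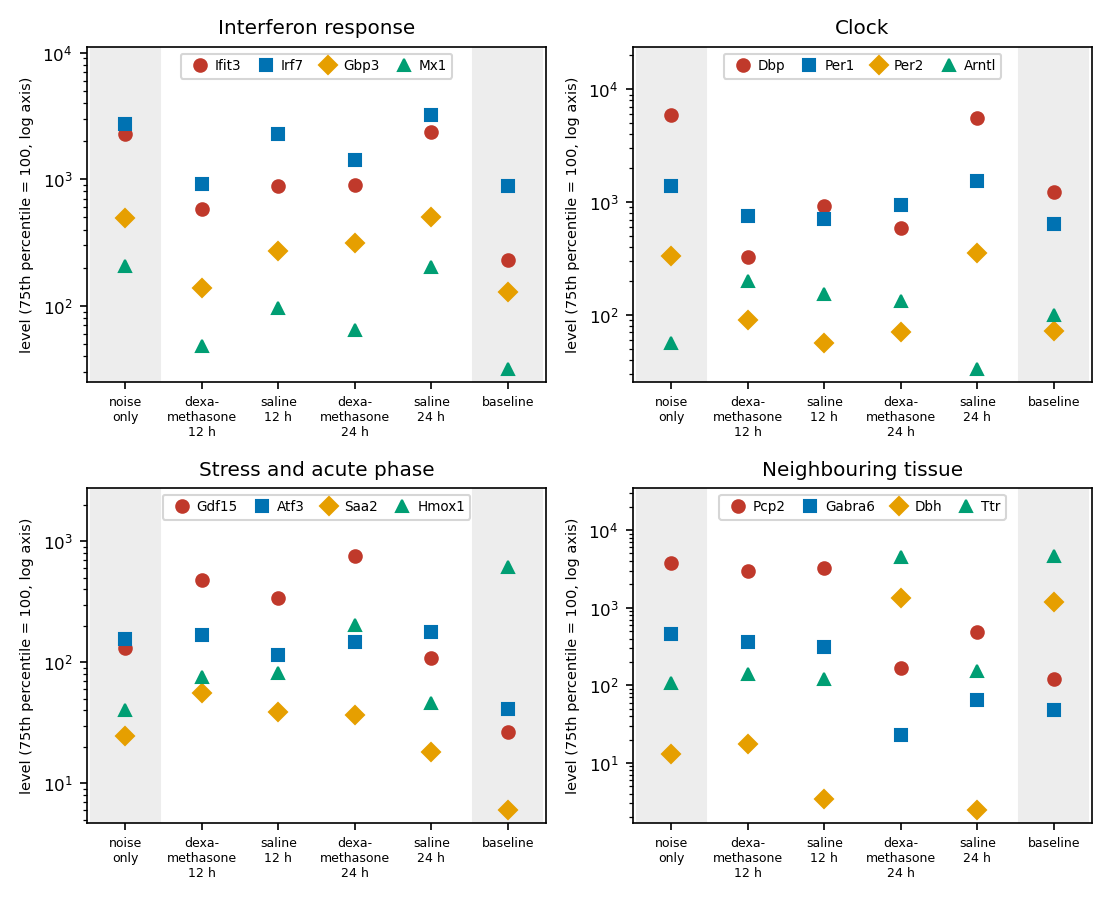
Levels (array 75th percentile = 100, log axis) of 16 genes on the noise array, the 4 arrays of injected noise-exposed mice and the baseline array, 1 point per array. Ifit3 and Dbp are high on the noise and saline 24 h arrays, Hmox1 is highest on the baseline array (612), and Dbh and Ttr are high only on the dexamethasone 24 h and baseline arrays.

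Promoters of Per1 and Ciart are shown because they hold the E-box CACGTG, the site of CLOCK and BMAL1, in capitals below. The E-box reads the same on both strands. Per1 lies at chr11:69098699-69098998 on the plus strand, with 1 match, and Ciart at chr3:95882179-95882478 on the minus strand, with 3 matches.
Per1: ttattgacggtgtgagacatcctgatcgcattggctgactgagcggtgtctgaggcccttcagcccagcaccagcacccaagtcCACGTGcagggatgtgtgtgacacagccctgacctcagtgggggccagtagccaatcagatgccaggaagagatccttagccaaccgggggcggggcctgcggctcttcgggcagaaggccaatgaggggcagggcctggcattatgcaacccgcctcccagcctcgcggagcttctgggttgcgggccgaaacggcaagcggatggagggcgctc
Ciart: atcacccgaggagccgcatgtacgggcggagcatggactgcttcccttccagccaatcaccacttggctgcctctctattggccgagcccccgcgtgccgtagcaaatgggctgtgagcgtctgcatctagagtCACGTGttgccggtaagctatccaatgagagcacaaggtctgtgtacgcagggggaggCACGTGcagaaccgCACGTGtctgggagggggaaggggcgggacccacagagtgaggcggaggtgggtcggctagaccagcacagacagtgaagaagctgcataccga

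The E-box lay in 7.15% of all windows. Of 7 clock genes with a window that were at least 2-fold higher, 5 held it (Per1, Ciart, Cry1, Bhlhe41 and the output gene Tspan4). Dbp and Per3 did not. Of those that held it, Cry1 and Bhlhe41 fell under 2-fold with another background correction and Per1 over the mean of its probes. Of 19 measured clock genes not 2-fold higher, 1 held the E-box (Tef). The D-box TTATGNAA, the site of DBP and its relatives, was searched on both strands and lay in 2 of the 7 (Per1 and Per3), in 0 of the 19 and in 3.39% of all windows.

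Most stress genes were within 2-fold of baseline. In the integrated stress response, phosphorylated eIF2 lets ATF4 induce amino acid and redox genes. Of its 21 measured genes 5 were at least 2-fold higher, against 2.64% of all genes. None was lower and 16 lay within 2-fold, with a median of 0.20 beside a spot error of 0.204. In 6 further lists (cytosolic heat shock proteins, endoplasmic reticulum chaperones with the unfolded protein response, NRF2 targets, superoxide and peroxide scavengers, metallothioneins and p53 targets) none of 101 measured genes was 2-fold apart, and 96 lay within 1.5-fold. Of all genes, 5.82% were 2-fold apart and 84.9% lay within 1.5-fold.

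Gdf15, a stress-induced hormone that reduces appetite, had 131 on the noise array and 26.6 on the baseline array, 4.94-fold higher (3.73 to 6.53). Its probe lies on mm9 chromosome 8 at 73153293 to 73153352. Gdf15 read 478 (12 h) and 750.0 (24 h) with dexamethasone and 338 (12 h) and 108 (24 h) with saline, so 3 of those arrays were above the noise array. Trib3, a pseudokinase that restrains ATF4, had 227 for noise and 105 for baseline, and Chac1, which breaks down glutathione, had 240 for noise and 114 for baseline. Each was just over 2-fold, and under spike-in scaling they were 0.99 and 0.95 on the log2 scale. Slc7a5, a transporter of large neutral amino acids, had 183 for noise and 72.2 for baseline. It read 94.5 (12 h) and 62.7 (24 h) with dexamethasone and 60.2 (12 h) and 62.3 (24 h) with saline, so the noise array had the highest level. Atf3, a stress and nerve injury factor, had 155 for noise and 41.4 for baseline, 3.75-fold higher (2.84 to 4.96), and stood between 114.5 and 177 on the other 4 noise-exposed arrays.

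Windows of Trib3 and Chac1 are shown because they hold the composite C/EBP-ATF element TGATGNAA, which ATF4 can bind, searched on both strands and in capitals below. Trib3 lies at chr2:152344011-152344310 on the minus strand and Chac1 at chr2:119350992-119351291 on the plus strand, each with 1 match.
Trib3: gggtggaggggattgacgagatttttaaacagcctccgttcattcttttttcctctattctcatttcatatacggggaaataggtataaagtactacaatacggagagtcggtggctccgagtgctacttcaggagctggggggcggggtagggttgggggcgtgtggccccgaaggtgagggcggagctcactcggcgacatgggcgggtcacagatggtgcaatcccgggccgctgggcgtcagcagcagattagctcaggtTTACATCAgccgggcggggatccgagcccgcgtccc
Chac1: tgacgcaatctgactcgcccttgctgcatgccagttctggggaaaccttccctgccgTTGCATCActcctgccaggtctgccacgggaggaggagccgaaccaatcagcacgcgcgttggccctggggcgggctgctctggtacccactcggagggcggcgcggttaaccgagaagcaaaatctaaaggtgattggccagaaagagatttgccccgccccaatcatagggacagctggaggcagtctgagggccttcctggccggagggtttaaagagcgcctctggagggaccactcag

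The element lay in 3 of the 4 higher integrated stress response genes with a window (Trib3, Chac1 and Fgf21, the last at 26.8 for noise and 11.8 for baseline and under 2-fold, at 0.78 on the log2 scale, with another background correction), in 4 of the 16 others measured and in 3.97% of all windows. It shares letters with the D-box, which differs from it at 1 of the fixed positions.

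Immediate early genes, which respond to activity and stress without new protein, were mostly near baseline. Of 27 measured, 2 were at least 2-fold higher (2.64% of all genes were) and none lower, with a median of 0.13. Egr4, a zinc finger factor, had 56.3 for noise and 7.62 for baseline, 7.39-fold higher (5.42 to 10.07), and Nr4a2, an orphan nuclear receptor, 215 for noise and 84.4 for baseline, with a second probe at 1.42 on the log2 scale. Egr4 read 37.8 (12 h) and 5.11 (24 h) with dexamethasone and 28.8 (12 h) and 8.98 (24 h) with saline. Those 3 arrays with high Egr4 were also the 3 with high cerebellar sums (35100, 31900 and 34990, against 15710 to 18750 on the others), and the part of cerebellar RNA in the Egr4 difference was not tested. Fos read 222 for noise and 119 for baseline, a difference of 0.90, and Egr1 394 for noise and 231 for baseline, a difference of 0.77. Dusp5, a nuclear phosphatase of ERK that the ranking by size named, had 290.2 for noise and 63.7 for baseline, 4.55-fold higher. Dusp5 read 245.6 (12 h) and 114 (24 h) with dexamethasone and 210.3 (12 h) and 89.7 (24 h) with saline, so that it too was highest on the 3 arrays with high cerebellar sums, whose part was not tested.

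The heat shock genes with the largest differences were the inducible HSP70 genes. Hspa1b had 149 for noise and 79.4 for baseline and Hspa1a 340.2 for noise and 215.0 for baseline, differences of 0.91 and 0.66, and as near-identical copies their probes may share signal. Hspa5, the main chaperone of the endoplasmic reticulum, read 2971 for noise and 2869 for baseline, and the superoxide dismutase Sod1 7740 for noise and 8276 for baseline.

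Genes that make reactive oxygen and nitric oxide went both ways. Nox3, the NADPH oxidase of the inner ear, had 12.1 for noise and 3.88 for baseline, 3.11-fold higher (2.02 to 4.78), and fell under 2-fold (0.66 on the log2 scale) with another background correction. Its levels of 11.7 (12 h) and 9.52 (24 h) with dexamethasone and 12.3 (12 h) and 14.04 (24 h) with saline lay near the noise level. Subunits of the phagocyte oxidase were lower: Cybb, its catalytic chain, had 37.6 for noise and 106 for baseline, with a second probe at -1.15, and Ncf4 had 461 for noise and 969 for baseline. Neutrophil granule genes were lower as well, as given above, and their part was not tested.

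Hmox1, haem oxygenase, which breaks down haem and is a common marker of oxidative stress, was much lower on the noise array, with 40.6 against 612 on the baseline array, 15.1-fold lower (11.4 to 19.9). It read 75.4 (12 h) and 205 (24 h) with dexamethasone and 81.1 (12 h) and 45.8 (24 h) with saline, so the baseline array stood above the other 5. Cd163, the haemoglobin receptor of macrophages, went the same way, with 22.1 for noise and 94.9 for baseline. So did Spic, a factor of iron-recycling macrophages, with 34.4 for noise and 82.6 for baseline. Of the 18 measured genes of haem breakdown and iron handling these 3 were 2-fold lower, against 3.18% of all genes. None was 2-fold higher, and the median was -0.04. In the macrophage list, of 16 measured genes only Cd163 was 2-fold lower, 11 lay below baseline and 5 above it. The median of that list was -0.26, and its highest member was Msr1, at 0.83. Of 18 measured BCL-2 family genes 1 was 2-fold apart, near the 5.82% of all genes. It was the pro-apoptotic Bax, with 175 for noise and 406 for baseline, 2.31-fold lower and with a second probe at -1.26.

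Targets of the glucocorticoid receptor, the receptor of stress hormones, were mostly within 2-fold. Of 21 measured, 1 was at least 2-fold higher (Per1, by its brighter probe) and 2 lower (Zbtb16 and Lcn2), with a median of -0.10. Over all genes 2.64% were higher and 3.18% lower by that much. Zbtb16, a transcriptional repressor, had 149.9 for noise and 378 for baseline, with a second probe at -1.01, and Fkbp5, a chaperone that feeds back on the receptor, 186 for noise and 354 for baseline, a difference of -0.93 whose second probe gave -0.30.

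Transcripts of the cochlea's own cell types were mostly within 2-fold of baseline on the noise array. Across 6 lists (hair bundle, hair cell soma and synapse, tectorial membrane and supporting cells, stria vascularis, spiral ligament fibrocytes and spiral ganglion neurons), 8 of 134 measured genes (5.97%) lay past 2-fold above baseline and 3 (2.24%) past 2-fold below it, against 2.64% and 3.18% of all genes. Within 1.5-fold lay 98 of the 134, a smaller share than the 84.9% of all genes. The median difference was 0.14.

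None of the 26 hair bundle and 22 hair cell soma and synapse genes measured was 2-fold lower, where 3.18% of all genes were. Lists of this size cannot be told apart from that share. Ocm, the calcium buffer of outer hair cells, had 1120 for noise and 746 for baseline, and Otof, the calcium sensor of the inner hair cell synapse, 451 for noise and 415 for baseline. Myo7a, a motor of the hair bundle, read 108 for noise and 105 for baseline. Highest of the bundle genes above a dim level was Ush1c, a scaffold of the tip link, with 458 for noise and 229 for baseline, just under 2-fold and with a second probe at 0.92. Cacna1d, the presynaptic calcium channel, read 60.9 for noise and 28.0 for baseline, but its further probes gave 0.50 and 0.56. Slc17a8, the vesicular glutamate transporter of inner hair cells, differed by -0.65.

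**Figure D4:**
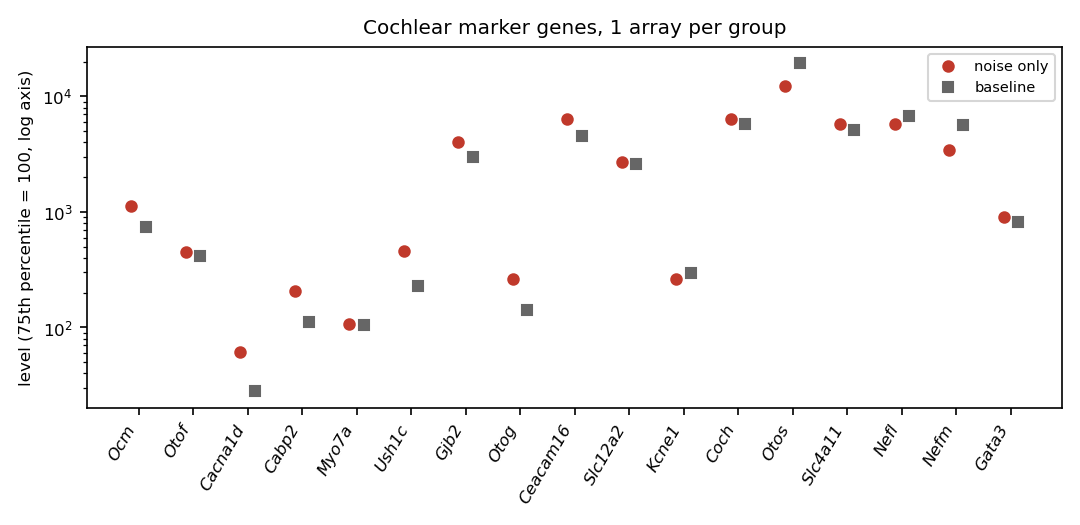
Levels (array 75th percentile = 100, log axis) of 17 cochlear marker genes on the noise array (circles) and the baseline array (squares), 1 array per group and no error bars. Most pairs lie close together, such as Otof (451 for noise, 415 for baseline) and Coch (6435 for noise, 5812 for baseline), and Cacna1d (60.9 for noise, 28.0 for baseline) is the pair farthest apart.

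In the supporting cells, Slc1a3, the glutamate transporter GLAST, had 1111 for noise and 327 for baseline, 3.40-fold higher (2.58 to 4.49), with a second probe at 0.76. It read 962 (12 h) and 455 (24 h) with dexamethasone and 935 (12 h) and 629 (24 h) with saline. The cerebellum, whose glia also make it, had its highest summed levels on the same 3 arrays, and its part was not tested. Otog and Ceacam16, proteins of the tectorial membrane, differed by 0.90 and 0.47. Otos, a secreted protein of fibrocytes and supporting cells, had 12260 for noise and 19320 for baseline. Col11a1, a fibrillar collagen, had 299 for noise and 834 for baseline, with further probes at -1.14 and -1.06. Osteoblast genes were lower too, as given below, and their part was not tested.

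In the lateral wall, Kcne1, the channel subunit through which the stria secretes potassium, read 265 for noise and 294 for baseline, and Coch, the main secreted protein of spiral ligament fibrocytes, 6435 for noise and 5812 for baseline. Enpp2, which makes lysophosphatidic acid and which the choroid plexus list also holds, had 740 for noise and 2254 for baseline, 3.05-fold lower, but its further probes gave -0.66 and -0.29. Enpp2 read 599 (12 h) and 2336 (24 h) with dexamethasone and 567 (12 h) and 839 (24 h) with saline, high on the same 2 arrays as the choroid plexus gene Ttr, which had 139 (12 h) and 4500 (24 h) with dexamethasone, 120.0 (12 h) and 151 (24 h) with saline, 108 for noise and 4568 for baseline. The part of choroid plexus RNA in the Enpp2 difference was not tested.

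Neuronal genes of the spiral ganglion had a median of 0.01 over 30 measured, with 3 at least 2-fold higher and none lower. Of all genes, 2.64% were higher and 3.18% lower by that much. Nefl, a neurofilament, read 5762 for noise and 6742 for baseline, and Gata3, a factor of auditory neurons, 901 for noise and 812 for baseline. The higher genes were Syt2, a calcium sensor of fast synapses, whose further probes gave -0.25 and 0.77, and the glutamate receptor subunits Gria4 and Gria2. Gria2 differed by 1.02 on the log2 scale and fell under 2-fold with normexp (0.96) and with spike-in scaling (0.90). Each of the 3 genes is also expressed in cerebellum, and the part of cerebellar RNA was not tested. Myelin genes of Schwann cells stayed within 2-fold, 20 of 20, where 5.82% of all genes were 2-fold apart.

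Ntf3, the neurotrophin that supports afferent synapses on hair cells, had 70.9 for noise and 28.0 for baseline, 2.53-fold higher (1.91 to 3.35). It read 65.0 (12 h) and 17.5 (24 h) with dexamethasone and 61.2 (12 h) and 27.7 (24 h) with saline, again high on the 3 arrays with high cerebellar sums, and the part of cerebellar RNA was not tested. Bdnf, the other cochlear neurotrophin, had 44.5 for noise and 26.2 for baseline, a difference of 0.76.

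Genes of neighbouring tissue held many of the largest differences in both directions. Of 23 measured cerebellar genes, 19 were at least 2-fold higher, against 2.64% of all genes, and none lower, with a median of 2.08. Pcp2, a Purkinje cell protein, had 3760 for noise and 120.4 for baseline, 31.2-fold higher (23.7 to 41.2), and Gabra6, a GABA receptor subunit of granule cells, 456 for noise and 48.3 for baseline. Glutamate receptors, 7 of 22 at least 2-fold higher, included Grin2a with 79.5 for noise and 7.11 for baseline, and Grin2c, a subunit of cerebellar granule cells, with 826 for noise and 120.4 for baseline. Pcp2 read 3007 (12 h) and 166 (24 h) with dexamethasone and 3269 (12 h) and 490 (24 h) with saline, so the level was high on the noise and both 12 h arrays and low on the others.

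Genes of the sympathetic, choroid plexus, pituitary and epidermal lists were in part lower. Dbh, which makes noradrenaline, had 13.2 for noise and 1199 for baseline, 91.1-fold lower (68.4 to 121). Of 17 measured genes in the sympathetic neuron and catecholamine list, 6 were at least 2-fold lower, where 3.18% of all genes were. The summed level of that list was 9634 for noise and 11700 for baseline. Ttr, a transport protein of choroid plexus, was 42.2-fold lower, and 7 of 15 measured choroid plexus genes were at least 2-fold lower. The pituitary hormone gene Prl had 224 for noise and 1437 for baseline. In epidermis 15 of 20 measured genes were at least 2-fold lower, with a median of -2.08, and 5 more were above background on the baseline array alone. Lor, the main protein of the cornified envelope, had 21.9 for noise and 732 for baseline, and Lce1a1 was at least 61.0-fold lower. Glra1, a glycine receptor subunit of brainstem and spinal cord, had 12.8 for noise and 507 for baseline, 39.7-fold lower (29.8 to 52.95).

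Blood cell genes and cell cycle genes were also lower. In the 6 lists of blood cell genes, 49 of 108 measured genes (45.4%) were at least 2-fold lower, against 3.18% of all genes, and 102 of 108 lay below baseline, with a median of -0.95. Of the 50 genes past 2-fold in either direction, 17 fell under it with normexp background correction. Vpreb1, the surrogate light chain of B cell precursors, had 20.8 for noise and 202 for baseline, 9.73-fold lower (7.34 to 12.9). Camp, the neutrophil cathelicidin, had 6524 for noise and 16910 for baseline, and Prg2, the eosinophil major basic protein, 280.5 for noise and 1088 for baseline. The single gene that was 2-fold higher, Klrb1c, a natural killer cell receptor, rested on 1 probe, as its second gave -1.45. All 31 measured cell cycle genes were below baseline, with a median of -0.75 and 10 at least 2-fold lower, of which 5 fell under 2-fold with normexp background correction; Cdk1 had 21.8 for noise and 58.2 for baseline. On the other arrays the summed level of 16 B cell genes, 1626 for noise and 3558 for baseline, was 1956 (12 h) and 2250 (24 h) with dexamethasone and 4304 (12 h) and 2744 (24 h) with saline.

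Bone and cartilage genes, made by the capsule around the cochlea, were in part lower. Of 24 osteoblast and osteocyte genes, 7 were at least 2-fold lower and none higher, with a median of -0.61. Of all genes, 3.18% were lower and 2.64% higher by that much. Col1a1, the main bone collagen, had 4545 for noise and 10180 for baseline, and Bglap, osteocalcin, 2968 for noise and 6191 for baseline. Dmp1, of osteocytes, differed by 0.35 in the other direction. Skeletal muscle genes were higher, 5 of 32 at least 2-fold with a median of 0.67. Myh4, the fastest myosin, had 7987 for noise and 2756 for baseline, while the slow-fibre gene Myl2 had 47.5 for noise and 133 for baseline.

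**Figure D5:**
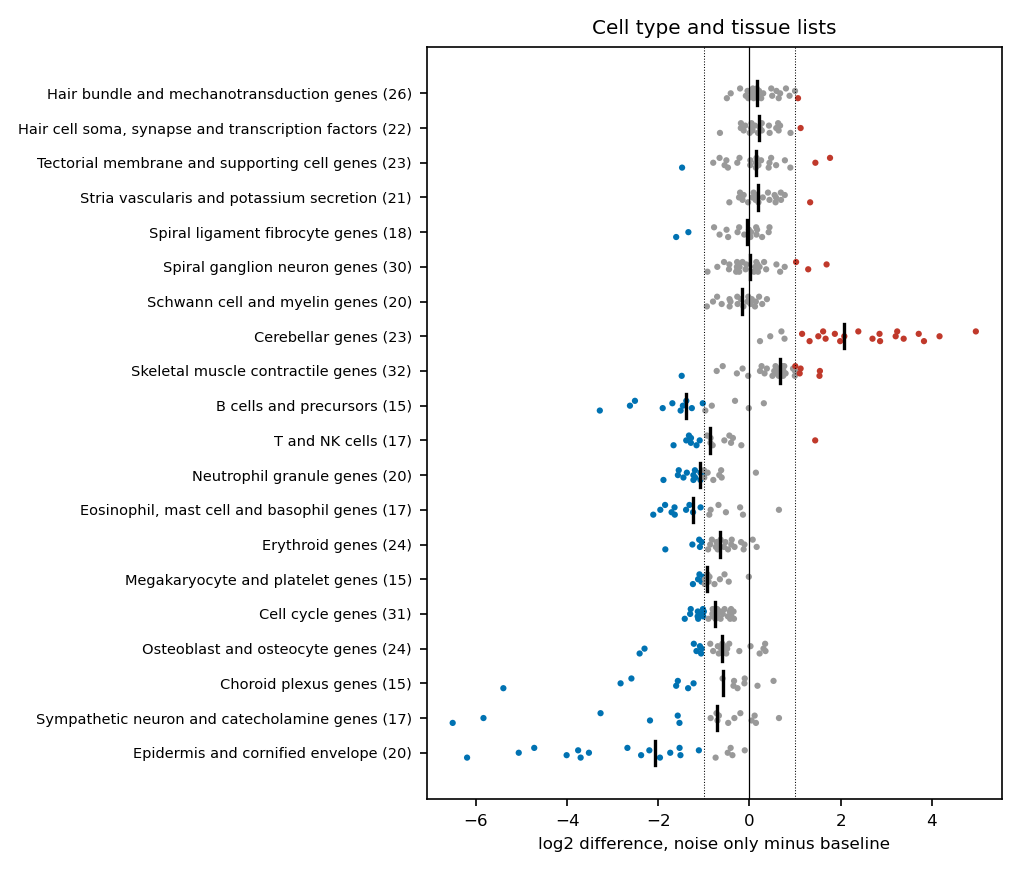
Log2 difference (noise only minus baseline, x axis) of every measured member of cell type and tissue lists, with the number measured in brackets, red at least 2-fold higher, blue at least 2-fold lower, and a black bar at the list median. Cochlear lists centre near 0, the cerebellar list lies to the right (median 2.08), and the blood cell, cell cycle and epidermal lists lie to the left.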

How the data were processed

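Per the labels, RNA of each group was labelled with Cy3 and hybridised to 1 one-colour Agilent array. Per the file headers, the authors extracted intensity values on a linear scale with Agilent Feature Extraction 10.10.1.1, which subtracts background, and the headers place probes on mm9. Log2 values in the deposited series matrix equalled those of the scanner files less a constant near each array's 75th percentile, and they served as an alternative. From the scanner files, the processed signal was put on a log2 scale without control and outlier spots, spots of a probe were averaged and each array was set relative to the 75th percentile of its non-control probes. Between 63.0% and 70.3% of 56605 probes were well above background on the 6 arrays. Precision is limited by the number of arrays. The noise and baseline arrays shared 1 slide, so slide did not differ between them, and with 1 array per group no block could be fitted.

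Of the probes, 32994 were named through RefSeq accessions, which changed 1535 names, and the others kept the name in the file. A gene was represented by its probe of highest mean over the 6 arrays. A gene above background on 1 array has only a bound. It sets the dim array at its faintest probe still well above background, or at the gene's own signal where that is higher. The members, the 72 gene lists, the motifs and the alternatives were chosen with earlier results of these data known. Named were the 30 highest and 30 lowest genes at or above the median signal, the 15 highest and lowest bounds, list members at least 2-fold apart or else the 8 largest of a list, and genes picked by role. Not all of these genes are printed. A count without genes of neighbouring and blood-forming tissue was added after seeing the data.

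Alternatives were quantile normalization, normexp background correction (offset 50) with quantile normalization in limma 3.58.1 and R 4.3.3, the percentile over probes above background on all arrays, E1A spike-in scaling, the mean over probes, the names in the file, other filters on dim probes and thresholds of 1.5-fold and 3-fold. The scripts were tested on simulated data. Other steps used Python 3.11.15, pandas 2.3.3, numpy 2.4.6, matplotlib 3.10.9 and the R package data.table (1.17.8).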

Additional observations from a re-analysis of the deposited data

How the results depend on the processing

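No paired analysis was possible because each group had 1 array, and for the same reason no array could be left out. Against 638 higher and 768 lower genes, the counts were 376 and 311 with normexp and quantile normalization, 1515 and 1942 with dim probes kept, 240 and 190 at or above the median signal, 1548 and 2101 at 1.5-fold and 209 and 190 at 3-fold. E1A spike-in scaling moved the median of all genes by -0.13 on the log2 scale and gave 516 higher and 1032 lower genes, so that 33.3% of the genes past 2-fold were higher, against 45.4%. Without genes of the lists of neighbouring and blood-forming tissue, chosen after seeing the data, 613 were higher and 660 lower. Of list medians under these alternatives, 611 moved by less than the spot error of a difference, 25 moved by more, and 3 changed sign. With normexp the moved medians were -0.60 for chemokine receptors, -0.99 for B cells, -0.59 for T and NK cells, -0.77 for eosinophil, mast cell and basophil genes, -0.35 for choroid plexus, -1.54 for epidermis and -0.23 for mucosal and gland genes. Over the mean of probes, epidermis moved to -1.85. Without a filter, clock activators moved to -0.12, choroid plexus to -0.91 and GABA and glycine receptors to 0.27. Among genes at or above the median signal, the signs changed for inflammatory chemokines (-0.0156), chemokine receptors (0.0314) and cytokines (0.0782). There the other moved medians were 0.88 for IFIT and Mx effectors, 1.54 for GTPases, 0.19 for NF-kB genes, -0.996 for B cells, -0.42 for T and NK cells, 0.23 for nerve injury genes, -0.77 for NADPH oxidases, -0.58 for acute phase genes, -0.33 for sympathetic genes, -0.30 for choroid plexus, -1.46 for pituitary genes, -0.0063 for cartilage, 0.70 for glutamate receptors and 1.31 for GABA and glycine receptors. This filter leaves fewer genes by construction, and otherwise the cause was not tested. Of 275 named genes past 2-fold, 64 fell under it with normexp, 24 over the mean of probes, 14 with spike-in scaling and 6 with quantile normalization. Klrb1c changed sign over the mean of its probes (-0.0029).

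With 1 array per group, differences between noise-exposed and baseline mice, between single mice or pools, between dissections and between hours of day cannot be told apart. Dim probes rest on signals near background, and their differences shrink with normexp.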

Other observations

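Housekeeping groups lay close to baseline. The 30 cytosolic ribosomal protein genes were all slightly below baseline by their brightest probes, with a median of -0.17 on the log2 scale, which ranged from -0.29 with spike-in scaling to -0.02 with normexp. Rpl19 was the farthest, with 4127 on the noise array and 5602 on the baseline array. None of 31 measured subunits of oxidative phosphorylation was 2-fold apart, where 5.82% of all genes were. The largest difference among these subunits was that of the muscle form Cox6a2, with 2307 for noise and 1543 for baseline. In sterol and fatty acid synthesis, Fasn, the fatty acid synthase, had 10960 for noise and 5483 for baseline, just under 2-fold, while none of the 23 measured genes passed that mark.

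Vessel and complement genes were within 2-fold, and some matrix genes were not. The 24 endothelial and pericyte genes were all within 2-fold, and Pecam1, an endothelial adhesion molecule, had 36.1 for noise and 53.01 for baseline. Of 18 complement genes none was 2-fold apart, where 5.82% of all genes were. Lists of 18 or 24 genes cannot be told apart from that share. Cfb, complement factor B, had the largest difference, with 129 for noise and 77.6 for baseline. Of 26 collagens, 6 were at least 2-fold lower (3.18% of all genes were) and none higher. Col15a1, a basement membrane collagen, had 3.95 for noise and 48.2 for baseline, and Col22a1, of tissue junctions, 353 for noise and 925 for baseline. Of 20 metalloproteinases and inhibitors 1 was at least 2-fold higher and 2 lower, where 5.82% of all genes were 2-fold apart. Mmp8, the collagenase of neutrophils, had 240.3 for noise and 714 for baseline, and Mmp9 153 for noise and 323 for baseline, beside the lower neutrophil genes, whose part was not tested. Among genes of the hypoxia response, Pdk1, which restrains pyruvate oxidation, had 741 for noise and 333 for baseline by its brightest probe, but 0.35 on the log2 scale over the mean of 5 probes. The lysosomal adaptor gene Lamtor2 was 4.97-fold lower on its single probe.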
